A study of Mus musculus with 16 samples.

Results

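De novo lipogenesis and triglyceride synthesis were followed through 10 genes, *Acly*, *Acaca*, *Acacb*, *Fasn*, *Me1*, *Thrsp*, *Srebf1*, *Mlxipl*, *Dgat1* and *Dgat2*, named as enzymes and regulators of these steps, with earlier results of these data known. They were 10 of the 51060 genes with a transcript in the data, and all 10 were among the 15632 genes with enough reads to be tested. RNA was sequenced from brown adipose tissue (BAT) of 16 mice, with 4 females and 4 males of each genotype, WT and OPA1 BKO. All mice were 7 weeks old, on a C57Bl/6J background, fed chow and kept at room temperature, and all carried floxed *Opa1* alleles. OPA1 BKO mice also carried a Cre transgene under the *Ucp1* promoter, so that deletion of *Opa1*, a gene for an inner mitochondrial membrane fusion protein, was directed to thermogenic adipocytes and not to the other cells of the depot, and the WT mice were littermates without Cre. Mice are numbered 1 to 4 within each sex and genotype, and the numbers only name the mice and pair none of them.

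Lipogenesis begins with citrate that leaves the mitochondrion. ATP citrate lyase (*Acly*) cleaves it to acetyl-CoA, the acetyl-CoA carboxylases (*Acaca*, *Acacb*) make malonyl-CoA, and fatty acid synthase (*Fasn*) builds palmitate from it with NADPH, some of which comes from malic enzyme (*Me1*). SREBP-1 (*Srebf1*) and ChREBP (*Mlxipl*) are the transcription factors that carry insulin and carbohydrate signals to these genes, *Thrsp* (Spot 14) is a lipogenic protein that responds to thyroid hormone, and DGAT1 and DGAT2 add the last acyl chain to make triglyceride, the lipid that brown adipocytes store in droplets and burn for heat.

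The sequences just upstream of 4 annotated starts are shown because the count ratio of *Acly* to *Fasn* is described in every mouse, and because *Mlxipl* has separate starts. Each is the 250 bases before the start, 5′ to 3′ on the gene's strand, from RefSeq on GRCm38.p6. Capitals mark the CCAAT box (CCAAT, read by NF-Y), the GC box (GGGCGG, read by SP1), the E-box (CACGTG, read by basic helix-loop-helix factors such as ChREBP with MLX) and the sterol regulatory element (TCACNCCAC, read by SREBPs), searched on both strands. They are *Fasn* (chr11:120824548-120824797, minus strand), *Acly* (chr11:100528001-100528250, minus strand), the main start of *Mlxipl* (chr5:135106641-135106890, plus strand) and its upstream start (chr5:135089640-135089889, plus strand).
Fasn: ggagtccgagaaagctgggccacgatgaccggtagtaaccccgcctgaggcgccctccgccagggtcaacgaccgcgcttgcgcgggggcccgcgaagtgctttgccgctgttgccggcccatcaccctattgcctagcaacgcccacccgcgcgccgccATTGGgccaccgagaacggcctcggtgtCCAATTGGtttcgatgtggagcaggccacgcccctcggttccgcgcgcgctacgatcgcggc
Acly: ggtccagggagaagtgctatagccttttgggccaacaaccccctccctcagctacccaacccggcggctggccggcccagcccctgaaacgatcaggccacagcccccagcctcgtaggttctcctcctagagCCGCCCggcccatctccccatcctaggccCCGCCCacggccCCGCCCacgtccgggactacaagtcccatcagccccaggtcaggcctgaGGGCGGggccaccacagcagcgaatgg
Mlxipl main start: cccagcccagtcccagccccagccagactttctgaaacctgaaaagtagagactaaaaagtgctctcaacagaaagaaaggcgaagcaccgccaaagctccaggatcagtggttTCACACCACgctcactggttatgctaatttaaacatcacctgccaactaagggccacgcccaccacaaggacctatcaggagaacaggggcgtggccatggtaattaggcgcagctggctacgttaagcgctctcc
Mlxipl upstream start: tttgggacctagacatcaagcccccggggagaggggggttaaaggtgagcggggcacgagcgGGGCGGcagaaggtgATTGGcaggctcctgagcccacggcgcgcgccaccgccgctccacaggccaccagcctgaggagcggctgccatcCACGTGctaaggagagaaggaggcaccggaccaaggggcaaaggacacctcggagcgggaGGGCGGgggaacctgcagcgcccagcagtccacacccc
The *Fasn* window held 3 CCAAT boxes, 2 of which overlap on opposite strands, and none of the other 3 motifs. The *Acly* window held 4 GC boxes and none of the other 3. Transcripts that start just downstream of it held 34.7% of the gene's level per transcript length (TPM) in WT and 49.7% in OPA1 BKO mice. Another start, at chr11:100523598, held 59.9% and 46.6%, and no window was held for it. The sterol regulatory element was found in the main *Mlxipl* window, and the E-box in the upstream one. RefSeq windows were held for 8 of the 10 genes, 12 windows in all, of which 7 had a CCAAT box, 5 a GC box, 1 an E-box and 1 a sterol regulatory element. Over all 32851 mouse windows of the same length the shares were 33.8%, 32.7%, 6.02% and 1.05%. The carbohydrate response element with its pair of E-boxes, the DR4 element of LXR and the C/EBP-ATF response element (TGATGNAA, 3.45% of all windows) were in none of the 12. The first 2 of these were searched as exact letters at a fixed spacing. Over all 32851 windows the carbohydrate response element was found in 0 and DR4 in 5 (0.0152%). Patterns this rare would be missing from almost any 12 windows, so their absence here says nothing about these genes. No window was held for *Dgat1* or *Dgat2*. A match or its absence describes these letters and not the binding of a factor.

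*Opa1* itself was measured first. Its level was between 152 and 210 CPM (normalised counts scaled to a common total) in the 8 WT mice and between 17.9 and 36.9 CPM in the 8 that were OPA1 BKO, a log2 fold change of −2.82 (SE 0.15, adjusted p = 7.35e-10, edgeR). Total estimated counts per mouse were between 13607283 and 23114534, and every one of the 10 genes had at least 3109 estimated counts in each mouse, so counting error was small beside the differences between mice. Markers of some other cell types differed between genotypes, and their counts stand beside 20.8% of all genes tested called higher and 20.2% called lower. The 8 macrophage markers summed to between 78.6 and 110 CPM in WT and between 111 and 445 CPM in OPA1 BKO mice, with 6 of 8 higher by edgeR. The 8 skeletal muscle markers summed to between 71.2 and 6263 CPM in WT and between 48.2 and 14629 CPM in OPA1 BKO mice, with 0 of 8 called by edgeR and 0 at an unadjusted p-value under 0.05, and the highest sums were in OPA1 BKO male 1 (14629 CPM) and OPA1 BKO female 2 (11957 CPM). Of 7 adipocyte markers, 4 were lower and 1, *Pparg*, was higher, and of 6 endothelial markers 4 were lower. Markers of brown adipocytes summed to between 7120 and 11434 CPM in WT and between 4547 and 8930 CPM in OPA1 BKO mice, with 3 of 8 lower and 1, *Elovl3*, higher. Of 6 fibroblast markers 3 were higher, and of 7 lymphocyte markers 2 were lower. Of 4 white adipocyte markers 0 were called, and of 4 hepatocyte markers 0. No marker of any of these lists was at 0 in all mice of a genotype. Their part in the differences below was not tested, and in whole tissue fewer adipocytes and less RNA per adipocyte cannot be told apart.

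The direction of a difference in these tissues depends on scaling. Transcripts of the mitochondrial genome took between 23.3% and 30.5% of the counts of a WT mouse, but between 4.44% and 9.02% in OPA1 BKO mice. The median log2 fold change over all genes tested was 0.01 with trimmed mean (TMM) normalisation, which is used throughout, 0.57 with library size alone, 0.11 with *Tbp* as the reference, and between 0.74 and 0.92 on log2 TPM, the deposited measure that divides by transcript length and scales each mouse to the same total. Differences are therefore given relative to the bulk of genes. Set against the median gene of the same fit, 7 of the 10 genes were below it and 2, *Acly* and *Me1*, above it under all 14 fits tried. The exception was *Srebf1*, which was between 0.06 below and 0.26 above the median.

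Of the 10 genes, 5 were lower in OPA1 BKO than in WT BAT and 0 were higher at an adjusted p-value under 0.05 (quasi-likelihood test in edgeR, adjusted for sex, Benjamini-Hochberg adjustment over all genes tested). Among all genes tested 20.2% were called lower and 20.8% higher, and DESeq2 called the same numbers of the 10, with 5 lower and 0 higher. At an unadjusted p-value under 0.05, 0 were higher with either tool. The median log2 fold change of the 10 was −0.47, beside 0.01 over all genes tested. The triglyceride-forming *Dgat1* and *Dgat2* fell with no overlap between genotypes, *Thrsp*, *Acacb* and *Fasn* fell with some overlap, and *Acly*, *Acaca*, *Me1*, *Srebf1* and *Mlxipl* did not pass the test. All 5 falls are relative to other genes. On log2(TPM + 0.5) *Dgat1*, *Dgat2*, *Thrsp* and *Acacb* had positive values (0.24, 0.08, 0.07 and 0.38) and *Fasn* was at −0.08. None of the 5 was called lower there, and *Acacb* was called higher (adjusted p = 0.0204, limma), as were 13480 of all 15632 genes tested.

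**Figure D1:**
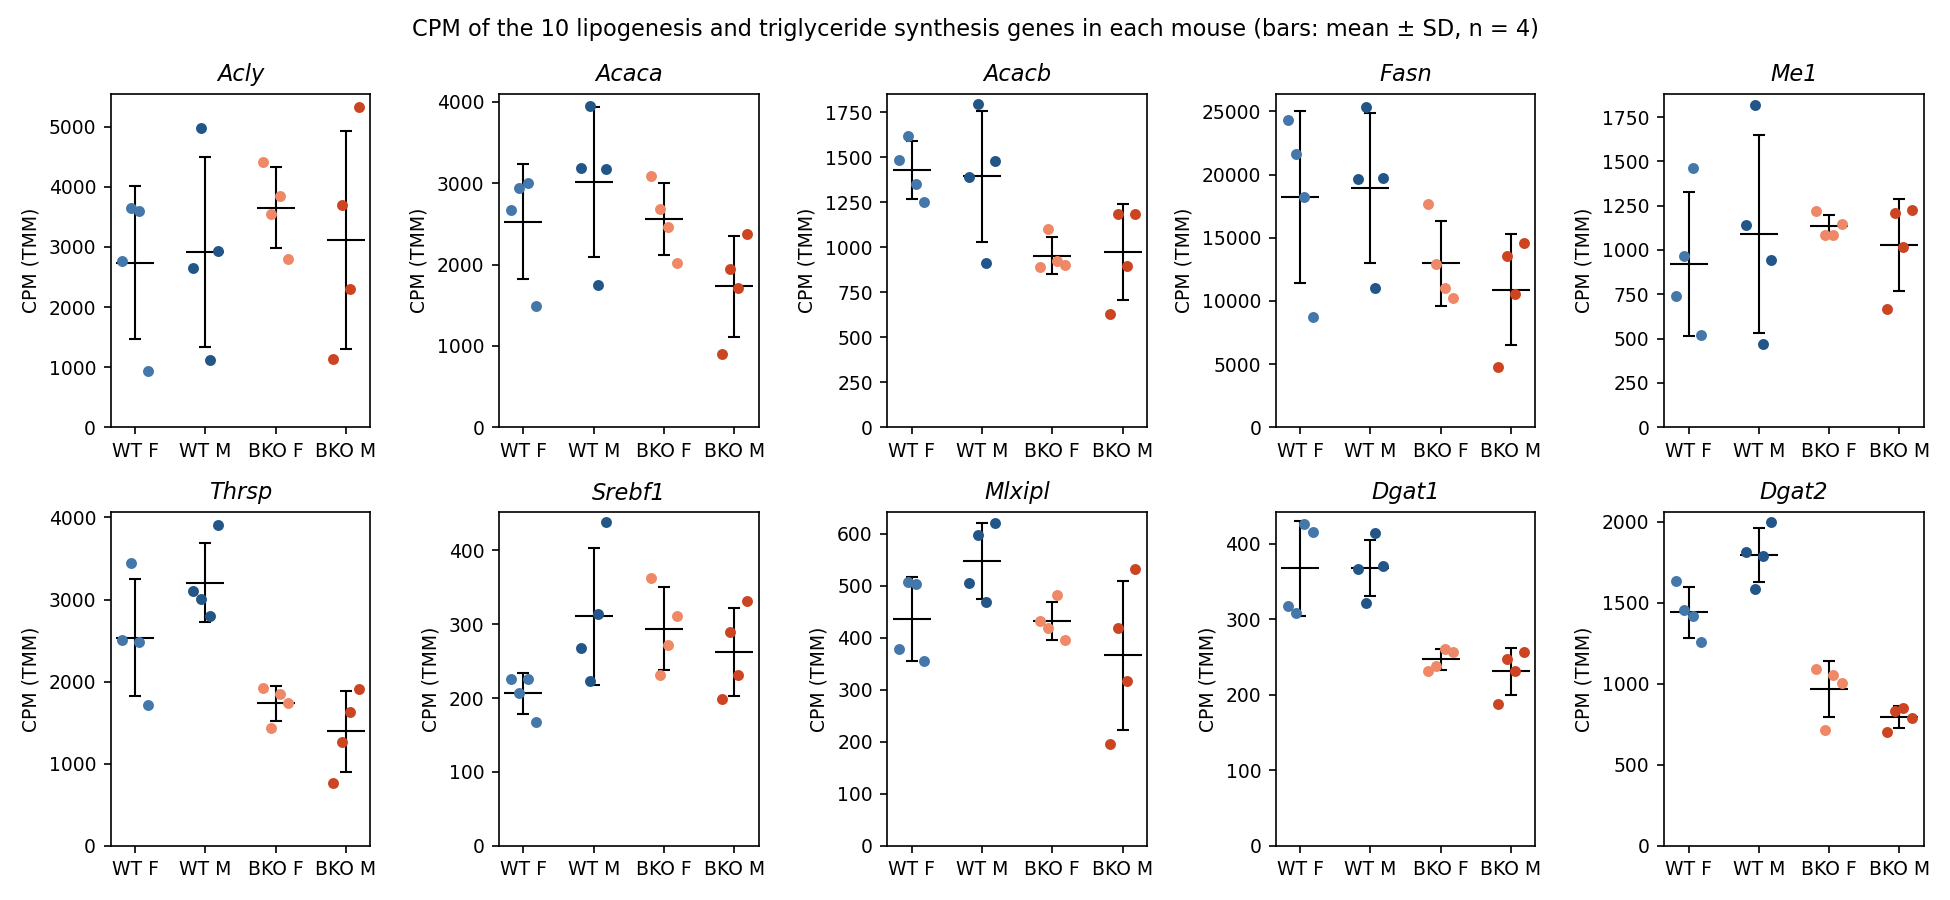
Normalised counts (CPM, TMM) of each gene in each mouse on a linear axis from 0, by genotype and sex (WT F, WT M, BKO F, BKO M), with points for mice and bars for mean ± SD (n = 4). All 8 OPA1 BKO mice lie below all 8 WT mice for *Dgat1* and *Dgat2*, while for *Acly* single mice of both genotypes lie far below their group; on log2(TPM + 0.5) the difference in *Dgat1* and *Dgat2* is positive.

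Per length, on the TPM scale, the order of the levels in WT mice was *Fasn* (5031 ± 1502 TPM, SD, n = 8), *Thrsp* (2143 ± 424), *Dgat2* (653 ± 75.5), *Acly* (605 ± 269), *Dgat1* (320 ± 80.0), *Me1* (305 ± 137), *Acaca* (263 ± 70.7), *Mlxipl* (182 ± 30.6), *Acacb* (179 ± 30.7) and *Srebf1* (85.8 ± 23.5). Neighbours from *Dgat2* to *Acly*, from *Dgat1* to *Acaca* and from *Mlxipl* to *Acacb* differed by less than their SD. In OPA1 BKO mice *Fasn* (4693 ± 1226 TPM) and *Thrsp* (2284 ± 572 TPM) again led, *Acly* (1397 ± 569 TPM) came next, *Me1* (707 ± 130 TPM) lay beside *Dgat2* (694 ± 120 TPM), and *Srebf1* (159 ± 36.9 TPM) was lowest. These sums take in noncoding transcripts, and the order changed without them. Over coding transcripts alone the mean of *Thrsp* was above that of *Fasn* in WT (2129 ± 427 and 1491 ± 529 TPM) and OPA1 BKO mice (2269 ± 568 and 2049 ± 773 TPM). *Dgat1* (96.0 ± 17.3 TPM) then lay below *Me1* (256 ± 113 TPM) and *Acaca* (263 ± 70.6 TPM) in WT mice. In OPA1 BKO mice *Acacb* (101 ± 32.3 TPM) was lowest, beside *Srebf1* (114 ± 25.6 TPM).

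*Dgat2* encodes the acyltransferase that takes up newly made fatty acids. In WT females it was at 1636, 1458, 1418 and 1256 CPM and in WT males at 1813, 1584, 1788 and 1997 CPM. In OPA1 BKO females it was at 1090, 715, 1056 and 1007 CPM and in OPA1 BKO males at 705, 834, 853 and 787 CPM. The highest OPA1 BKO mouse was below the lowest WT mouse, WT female 4. The WT mean was 1619 ± 242 CPM (SD, n = 8) and that of OPA1 BKO mice 881 ± 151 CPM (SD, n = 8), for a log2 fold change of −0.88 (SE 0.12, adjusted p = 2.7e-05, edgeR), which is 1.84-fold lower. The call was kept in all 16 fits that left out 1 mouse, with log2 fold changes between −0.94 and −0.82.

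*Dgat1* encodes the other, structurally unrelated acyltransferase. It was at 318, 309, 427 and 416 CPM in WT females, 366, 322, 414 and 371 CPM in WT males, 232, 239, 260 and 257 CPM in OPA1 BKO females and 188, 248, 232 and 257 CPM in OPA1 BKO males. Again the genotypes did not overlap. The log2 fold change was −0.62 (SE 0.09, adjusted p = 4.35e-05, edgeR), 1.54-fold lower, and it was called in 16 of 16 leave-one-out fits. Groups that did not overlap with OPA1 BKO lower were seen for 2 of the 10 genes and for 4.89% of all genes tested. Separation with OPA1 BKO higher was seen for 0 of the 10 and for 5.07% of all genes.

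*Fasn* was at 24353, 21620, 18229 and 8701 CPM in WT females and at 19619, 25390, 11038 and 19715 CPM in WT males. In OPA1 BKO females it was at 17709, 12953, 11026 and 10206 CPM and in OPA1 BKO males at 4780, 13559, 10568 and 14565 CPM. All 8 OPA1 BKO mice were below the WT median of 19667 CPM, but only OPA1 BKO male 1 was below the lowest WT mouse, and WT female 4 and WT male 3 lay within the OPA1 BKO range. The log2 fold change was −0.65 (SE 0.25, adjusted p = 0.0457, edgeR). This call was not firm. It was lost in 12 of 16 fits that left out 1 mouse, where the adjusted p-value was between 0.0115 and 0.0899, and was kept without WT female 4, WT male 3, OPA1 BKO female 1 or OPA1 BKO male 4. Without the 2 libraries with most skeletal muscle transcripts the log2 fold change was −0.52 (adjusted p = 0.0894, edgeR). It was −0.08 with library size alone (adjusted p = 0.762, edgeR) and on log2(TPM + 0.5) (adjusted p = 0.745, limma), and −1.04 with counts rebuilt from TPM by length (adjusted p = 0.00192, edgeR).

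*Acacb* encodes the carboxylase of the outer mitochondrial membrane, whose malonyl-CoA restrains fatty acid entry for oxidation. It was between 909 and 1795 CPM in WT (median 1432 CPM) and between 629 and 1183 CPM after deletion of *Opa1* (median 911 CPM). The log2 fold change was −0.55 (SE 0.14, adjusted p = 0.00517, edgeR). All 8 OPA1 BKO mice were below the WT median and 4 were below the lowest WT mouse, WT male 3. This fall is that of all transcripts of *Acacb* summed, coding or not. Noncoding ones held 62.7% of its estimated counts in WT and 48.4% in OPA1 BKO mice, and the coding ones were not tested alone. The log2 fold change of *Acacb* was 0.010 with library size alone (adjusted p = 0.946, edgeR). On log2(TPM + 0.5) it was 0.38 and was called higher (adjusted p = 0.0204, limma), as were 13480 of all 15632 genes tested. *Acaca*, the cytosolic carboxylase that feeds fatty acid synthesis, did not pass the test, at a WT mean of 2770 ± 804 CPM (SD, n = 8) and an OPA1 BKO mean of 2148 ± 667 CPM (SD, n = 8). Its log2 fold change was −0.39 (SE 0.23, adjusted p = 0.187, edgeR). In the same mouse the count ratio of *Acaca* to *Acacb* was, on the log2 scale, 0.94 ± 0.31 (SD, n = 8) for WT and 1.11 ± 0.40 (SD, n = 8) for OPA1 BKO mice, with overlapping ranges.

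*Thrsp* was at 2504, 3449, 2477 and 1710 CPM in WT females and 3099, 3013, 2804 and 3910 CPM in WT males. It was at 1916, 1437, 1851 and 1743 CPM in OPA1 BKO females and 769, 1263, 1632 and 1908 CPM in OPA1 BKO males. Only WT female 4 fell within the OPA1 BKO range. The log2 fold change was −0.87 (SE 0.19, adjusted p = 0.00144, edgeR), 1.83-fold lower.

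*Acly* stands at the entry of the pathway and was the most variable of the 10 between mice. It was at 2772, 3657, 3601 and 936 CPM in WT females and at 2650, 4975, 1112 and 2926 CPM in WT males. In OPA1 BKO females it was at 4411, 3554, 3853 and 2803 CPM and in OPA1 BKO males at 1129, 3698, 2307 and 5336 CPM. The genotypes covered nearly the same range, and the log2 fold change was 0.26 (SE 0.33, adjusted p = 0.569, edgeR). *Me1* was between 468 and 1816 CPM in WT and between 665 and 1223 CPM in OPA1 BKO mice. Its log2 fold change was 0.11 (SE 0.24, adjusted p = 0.752, edgeR). Both had positive values that passed the test with library size alone (0.83 and 0.67) and on log2(TPM + 0.5) (1.24 and 1.32). Those 2 fits called 10869 and 13480 of all 15632 genes tested higher.

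The ratio of the counts of 2 genes in the same mouse is not changed by a factor that scales the whole mouse, although it does change on TPM, where transcript lengths enter. For every one of the other 9 genes the count was set against that of *Fasn*, a comparison chosen after the values were seen and given as a description. The log2 count ratio of *Acly* to *Fasn* was between −3.31 and −2.34 in WT mice and between −2.20 and −1.45 in OPA1 BKO mice. All 8 OPA1 BKO mice were above all 8 WT mice, and the means were −2.82 ± 0.38 (SD, n = 8) for WT and −1.86 ± 0.26 (SD, n = 8) for OPA1 BKO, which differ by 0.96. For *Me1* to *Fasn* 7 of 8 OPA1 BKO mice were above the highest WT mouse, with a difference of 0.86, and for *Acaca* to *Fasn* 5 of 8, with a difference of 0.26. For *Dgat1* to *Fasn* the difference was 0.02, and for *Dgat2* to *Fasn* −0.24 with 4 of 8 mice below the lowest WT mouse, a direction that turned on log2(TPM + 0.5), where the log2 fold change of *Dgat2* was 0.08 and that of *Fasn* −0.08. Complete separation upward from *Fasn*, as for *Acly*, was found for 2.2% of all genes tested, and complete separation downward, seen for 0 of the 9, for 0.122%.

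**Figure D2:**
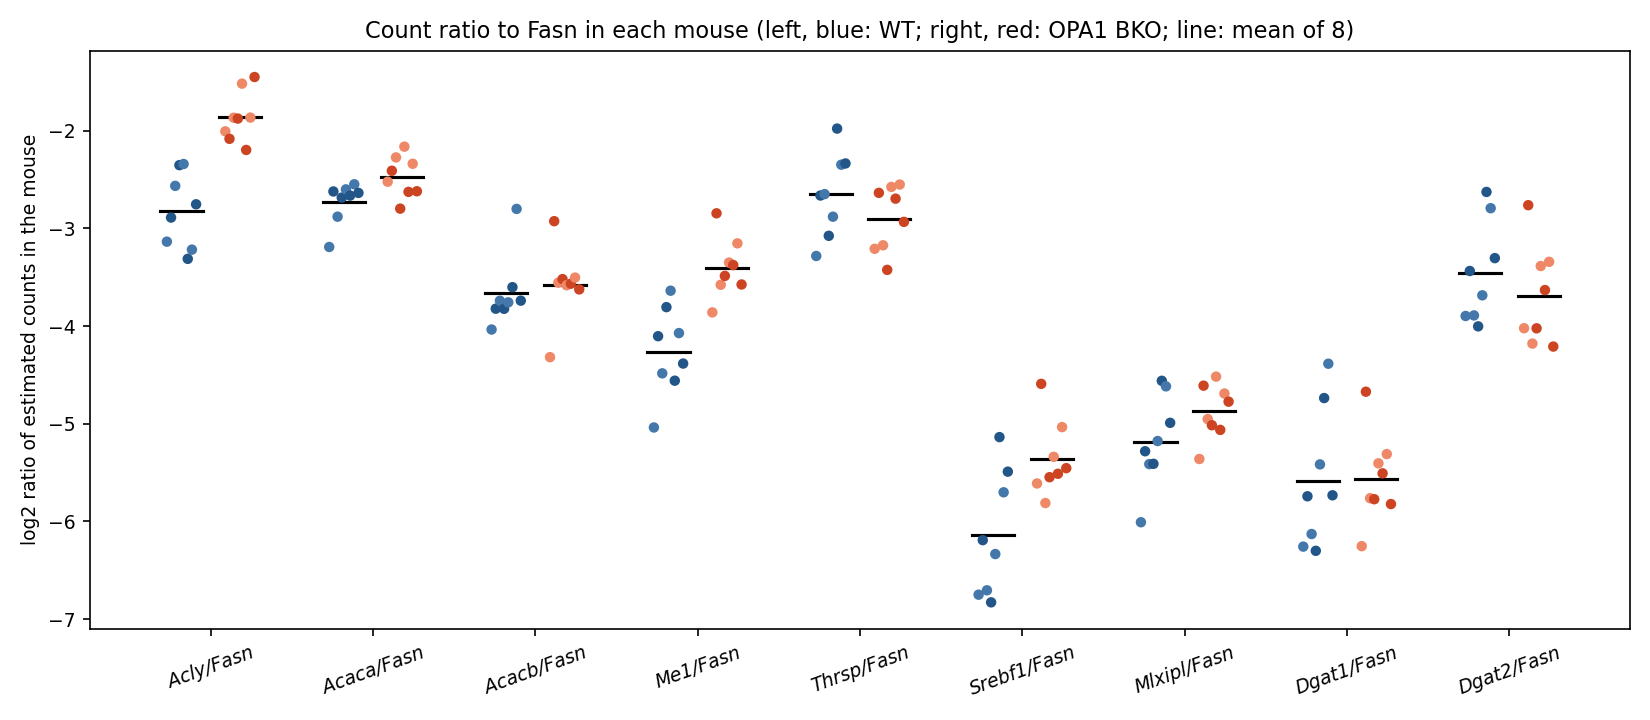
Log2 ratio of the estimated count of each gene to that of *Fasn* in the same mouse, with WT mice on the left in blue, OPA1 BKO mice on the right in red (females light, males dark) and a line at the mean of 8. For *Acly* the lowest OPA1 BKO mouse (−2.20) lies above the highest WT mouse (−2.34); for *Dgat1* the genotypes cover the same range.

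Neither transcription factor gene was called. *Srebf1* was between 167 and 438 CPM in WT (median 226 CPM) and between 198 and 362 CPM in OPA1 BKO mice (median 281 CPM), and its log2 fold change was 0.13 (SE 0.17, adjusted p = 0.558, edgeR). *Mlxipl* was between 355 and 620 CPM in WT (median 504 CPM) and between 196 and 532 CPM in OPA1 BKO mice (median 419 CPM), and its log2 fold change was −0.30 (SE 0.17, adjusted p = 0.177, edgeR). On log2(TPM + 0.5) both were called higher (0.89 and 0.70, limma), as were 13480 of all 15632 genes tested, and the median of all genes there was 0.81. The log2 count ratio of *Srebf1* to *Mlxipl* was −0.96 ± 0.33 (SD, n = 8) for WT and −0.49 ± 0.30 (SD, n = 8) for OPA1 BKO mice, and 4 of 8 OPA1 BKO mice were above the highest WT mouse.

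**Figure D3:**
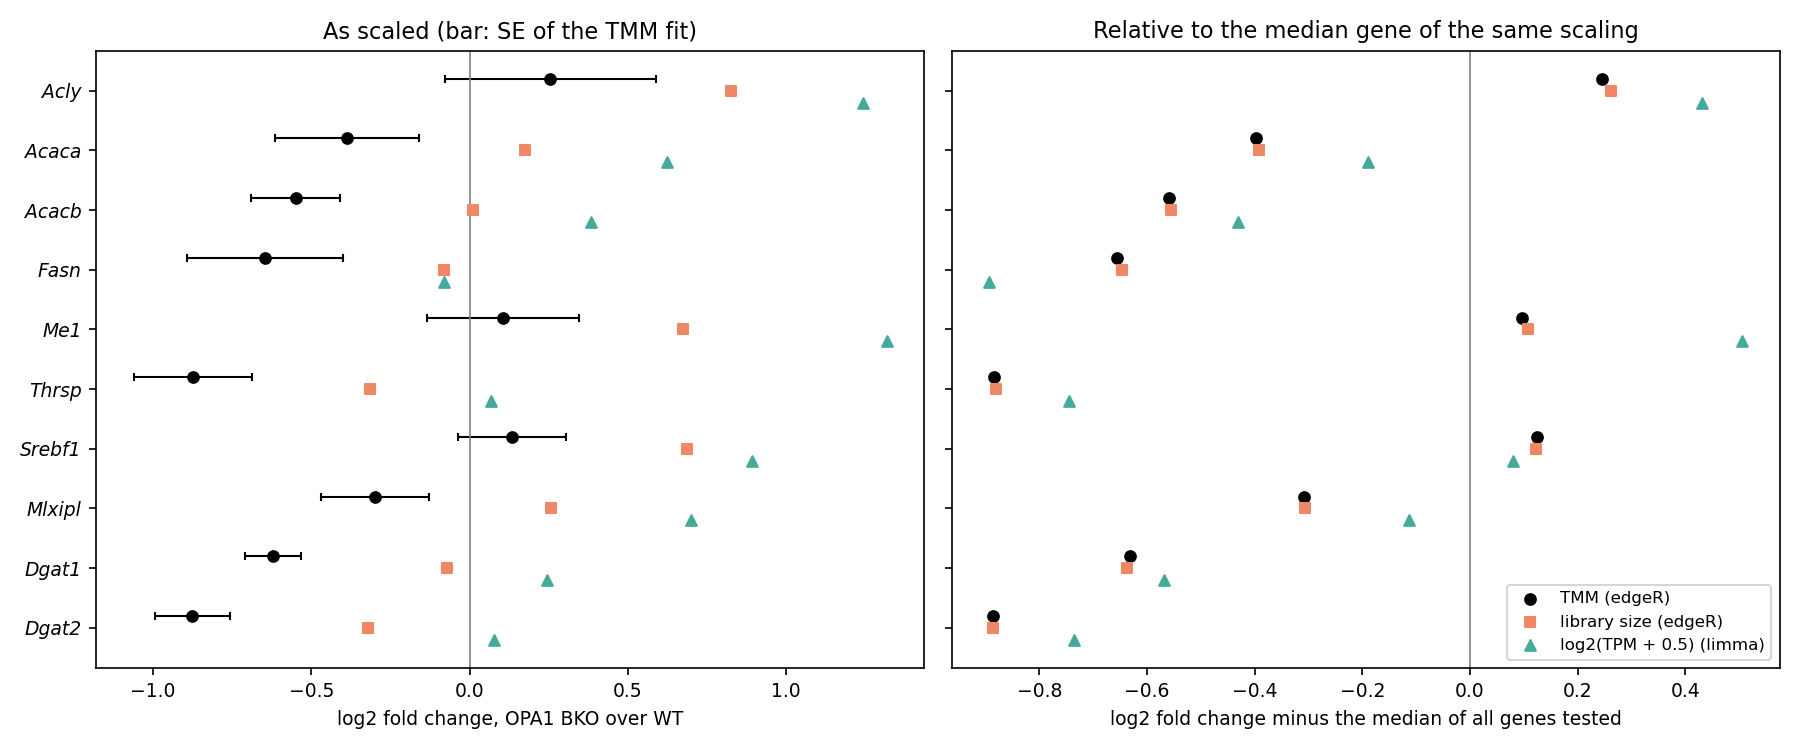
Log2 fold change of OPA1 BKO over WT for each gene under TMM (edgeR, bar is SE), library size alone (edgeR) and log2(TPM + 0.5) (limma), as fitted on the left and after subtracting the median of all genes tested on the right. On the left, *Acaca*, *Acacb* and *Mlxipl* turn positive with library size alone and on TPM, and *Thrsp*, *Dgat1* and *Dgat2* turn positive on TPM; on the right, all 10 keep their side under these 3 scalings.

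Sexes were compared because both were sequenced. Within females *Dgat1* (−0.57) and *Dgat2* (−0.58) were lower in OPA1 BKO mice, 2 of 10 beside 9.03% of all genes called lower. Within males *Dgat1* (−0.67), *Dgat2* (−1.18), *Thrsp* (−1.20) and *Acaca* (−0.80) were lower, 4 of 10 beside 16.9% of all genes. The male call of *Acaca* (adjusted p = 0.0464, edgeR) was kept in only 4 of 16 leave-one-out fits, those without WT female 2, WT female 4, WT male 3 or OPA1 BKO male 4. With library size alone, *Dgat1* was called in neither sex, and *Dgat2* and *Thrsp* were called lower only in males, beside 397 of all 15632 genes tested. In that fit *Srebf1* and *Me1* were called higher in females, as were 8895 of all genes tested. No difference between the sexes in the genotype effect was called for any of the 10 by edgeR (0.115% of all genes), where 2 had an unadjusted p-value under 0.05. These were *Dgat2*, with a male minus female difference of −0.60 (SE 0.18, adjusted p = 0.173, edgeR), and *Srebf1*, with −0.75 (SE 0.29, adjusted p = 0.29, edgeR). *Srebf1* had a log2 fold change of 0.51 in females and −0.24 in males. DESeq2 called 1 of the 10, *Dgat2* (−0.60, SE 0.18, adjusted p = 0.0359), beside 349 of all 15632 genes tested. Males against females gave 0 of 10 calls with either tool, beside 0.23% of all genes in WT and 3.85% in OPA1 BKO mice by edgeR, and 2 of 10 in WT and 1 of 10 in OPA1 BKO mice had an unadjusted p-value under 0.05 by edgeR.

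*Acly*, *Fasn* and *Acaca* differed more between mice of one group than most genes did. The SD of log2 CPM around the group mean was 0.91 in WT and 0.71 in OPA1 BKO mice for *Acly*, 0.59 and 0.58 for *Fasn*, 0.49 and 0.46 for *Acaca* and 0.73 and 0.30 for *Me1*. For *Acacb* it was 0.31 and 0.32, for *Dgat1* 0.20 and 0.16, and for *Dgat2* 0.15 and 0.22. The median over all genes tested was 0.24 in WT and 0.22 in OPA1 BKO mice, and over the 1336 genes that averaged 100 CPM or more it was 0.16 and 0.15. *Acly* thus exceeded 95.7% of all genes in WT and 93.6% in OPA1 BKO mice, and *Dgat2* 21.7% and 49.2%. A test of the deviations between genotypes (limma) called none of the 10 (0.0704% of all genes tested), with 1, *Me1*, at an unadjusted p-value under 0.05 (adjusted p = 0.209, limma), whose spread was the smaller in OPA1 BKO mice.

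The mice that were low were low in several genes at once. WT female 4 was below its group mean by 1.37 for *Acly*, 0.97 for *Fasn*, 0.73 for *Me1* and 0.71 for *Acaca* on the log2 scale. WT male 3 was below by at least 0.72 for each of the same 4 genes, and OPA1 BKO male 1 by 1.25 for *Acly*, 1.06 for *Fasn*, 0.59 for *Me1* and 0.86 for *Acaca*. *Dgat1* did not follow in WT, where WT female 4 and WT male 3 were above their group means by 0.20 and 0.17. The skeletal muscle markers summed to 975 CPM in WT female 4, 208 CPM in WT male 3 and 14629 CPM in OPA1 BKO male 1. The adipocyte markers summed to 16632 CPM in WT female 4 and 16497 CPM in WT male 3, the highest sums of the 16 mice, and to 7031 CPM in OPA1 BKO male 1, the lowest. The part of either in these low values was not tested.

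**Figure D4:**
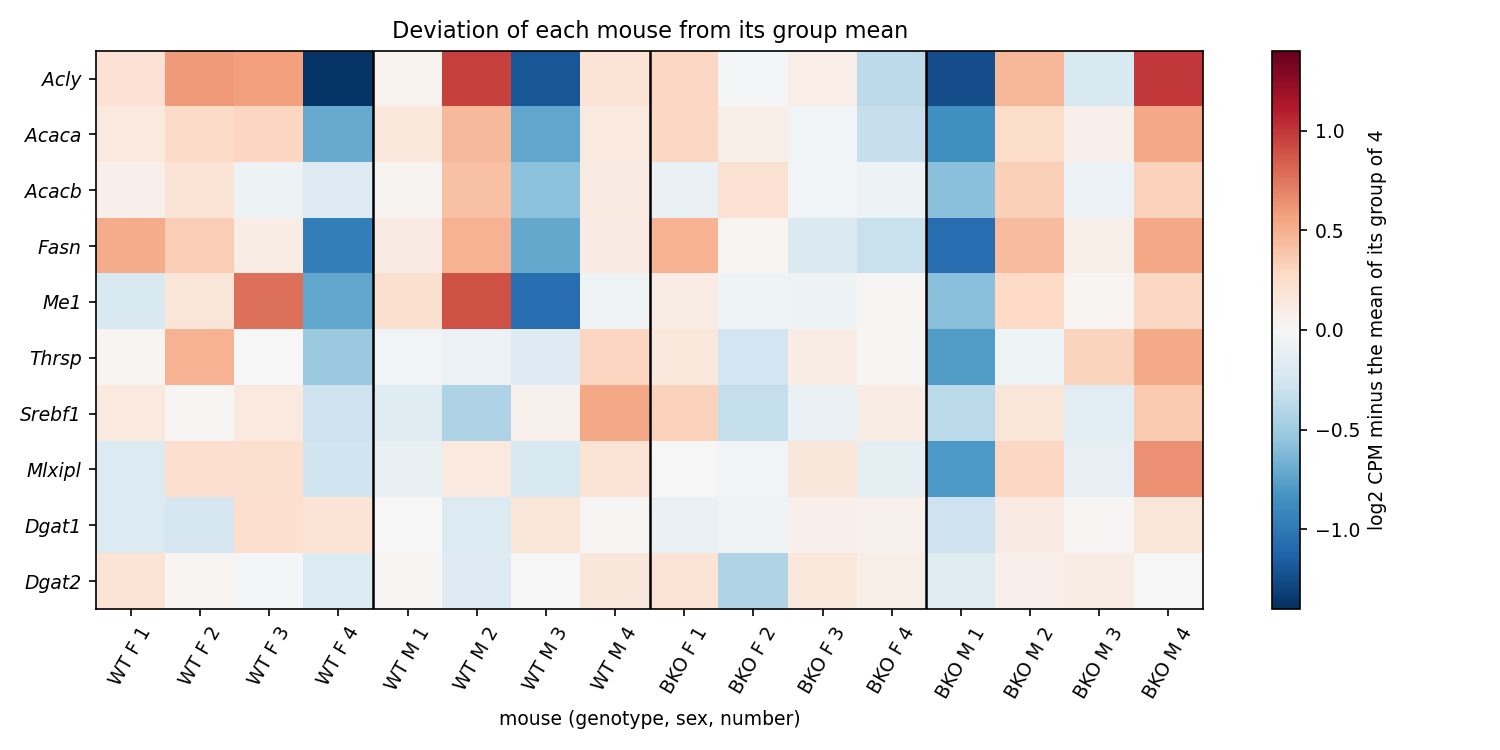
Log2 CPM of each gene in each mouse minus the mean of its group of 4, in colour from blue (below) to red (above), with vertical lines between the groups. WT F 4, WT M 3 and BKO M 1 are below their group means in *Acly*, *Acaca*, *Fasn* and *Me1* (by 1.37, 0.71, 0.97 and 0.73 in WT F 4), while *Dgat1* and *Dgat2* stay near 0 in most mice.

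Across the 8 mice of a genotype, deviations from the group mean were correlated with those of *Fasn*, with exact permutation of the pairing within each sex (two-sided) and adjustment over the 18 relations. In OPA1 BKO mice *Acaca* (r = 0.98, rho = 0.98, permutation p = 0.00174, the smallest possible, adjusted p = 0.0313 for both) and *Acly* (r = 0.93, rho = 0.88, permutation p = 0.00347, adjusted p = 0.0313 for both) passed. They kept r = 0.94 and r = 0.80 without the 2 mice farthest from the *Fasn* median, OPA1 BKO male 1 and OPA1 BKO male 4. In WT mice *Acacb* passed (r = 0.80, permutation p = 0.00521, adjusted p = 0.0313) with rho = 0.83 (permutation p = 0.0208, adjusted p = 0.0938), and r was 0.62 without WT female 4 and WT male 3. *Acly* and *Acaca* in WT mice had r = 0.94 each (permutation p = 0.0156 and 0.0208, adjusted p = 0.0563 and 0.0625) with rho = 0.74 and 0.45 (permutation p = 0.0556 and 0.278, adjusted p = 0.143 and 0.417). Without WT female 4 and WT male 3 they had r = 0.42 and 0.33, so these relations rest on those mice. *Dgat1* ran against *Fasn* in WT mice (r = −0.77, rho = −0.83, permutation p = 0.0278 and 0.066, adjusted p = 0.0714 and 0.148) and had r = 0.69 and rho = 0.45 in OPA1 BKO mice (permutation p = 0.194 and 0.342, adjusted p = 0.233 and 0.44). The difference between the genotypes was not tested. The 15 relations that did not pass had adjusted permutation p-values of r between 0.0563 and 0.71.

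The 5 other genes whose deviations over the 16 mice were most like the mean of the 10 were *Pygl* (r = 0.95), liver-type glycogen phosphorylase, *Eno1* (r = 0.95), the glycolytic enolase, *Ank* (r = 0.93), a membrane transporter linked to pyrophosphate export, *Tkt* (r = 0.93), transketolase of the pentose phosphate pathway, and *Atp4b* (r = 0.92), a subunit of the gastric proton pump, the last at a mean of only 4.68 CPM. These r are a description over mice that share the low libraries named above. Of the 5, *Ank* was higher in OPA1 BKO mice (0.87, SE 0.14, adjusted p = 0.000126, edgeR), *Tkt* was lower (−0.58, SE 0.17, adjusted p = 0.0133, edgeR) and the other 3 were not called.

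Other genes of the pathway were read from lists. Their counts stand beside 20.8% of all genes tested called higher and 20.2% called lower, and no list was tested as a set. Of 15 genes of elongation and desaturation, 7 were higher and 3 lower, with a median of 0.28. *Elovl3*, an elongase of very long chains and a marker of stimulated BAT, rose by 2.99 (SE 0.42, adjusted p = 3.68e-05, edgeR) from between 6.94 and 22.7 CPM in WT to between 35.9 and 260 CPM, and *Scd2* rose by 1.75 (SE 0.42, adjusted p = 0.00332, edgeR). *Scd1*, the main stearoyl-CoA desaturase of the tissue, fell by 0.82 (SE 0.23, adjusted p = 0.00844, edgeR) from 37026 to 21058 CPM, and *Elovl5* fell by 0.47 (SE 0.13, adjusted p = 0.00733, edgeR). Of 16 genes that supply citrate, acetyl-CoA and NADPH, 7 were lower and 0 higher, among them the citrate carrier *Slc25a1* (−0.72, SE 0.19, adjusted p = 0.00577, edgeR) and *Tkt*.

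Of 23 tested genes of glycerolipid assembly, 5 were higher and 5 lower, near the shares over all genes tested (20.8% and 20.2%), with a median of 0.04. The glycerol-3-phosphate acyltransferases of the endoplasmic reticulum went in opposite directions, *Gpat3* from 14.7 to 84.5 CPM (2.52, SE 0.25, adjusted p = 1.43e-06, edgeR) and *Gpat4* from 539 to 251 CPM (−1.12, SE 0.16, adjusted p = 4.83e-05, edgeR), and neither had overlapping genotypes. *Acsl4*, an acyl-CoA synthetase that favours polyunsaturated chains, rose by 1.47, and *Gpd1*, which makes glycerol 3-phosphate, fell by 0.63. Of 13 lipid droplet genes 2 were higher and 5 lower, with the droplet coat gene *Plin2* (1.54) and the lipase inhibitor *Hilpda* (0.58) higher and *G0s2* (−0.84), another lipase inhibitor, and *Cidec* (−0.78), which enlarges droplets, lower. All 6 calls among the 9 lipolysis genes were lower, among them the receptor *Adrb3* (−1.01) and the triglyceride lipase *Pnpla2* (−0.68). Of 12 lipid uptake genes 3 were higher and 4 lower, with *Fabp3* (1.12), a fatty acid binding protein, higher and *Slc27a2* (−1.55) and *Fabp4* (−0.80) lower.

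Of 17 genes of SREBP, LXR and ChREBP control, 5 were higher and 6 lower, beside 20.8% and 20.2% of all genes tested. *Mid1ip1*, the paralogue of *Thrsp*, rose from 33.5 to 84.6 CPM (1.35, SE 0.15, adjusted p = 3.86e-06, edgeR) while *Thrsp* fell, *Mbtps2*, a protease that cleaves SREBPs, rose by 0.59, and *Cebpa* (−0.94) and *Rxra* (−0.36) fell. Of 7 tested glucose-responsive targets of ChREBP 1 was higher (*Arrdc4*, 0.29) and 3 lower (*Pnpla3* at −0.90 and *Gpd1* among them). Of 7 subunits and kinases of AMPK, which phosphorylates the carboxylases, 2 were higher and 3 lower, with *Prkaa2* (1.11) and *Prkaa1* (0.52) higher and *Prkag2* (−0.80) and *Prkag1* (−0.53) lower. These directions hold relative to the median gene under TMM, and 66 list genes were called in all, beside 105 on log2(TPM + 0.5).

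**Figure D5:**
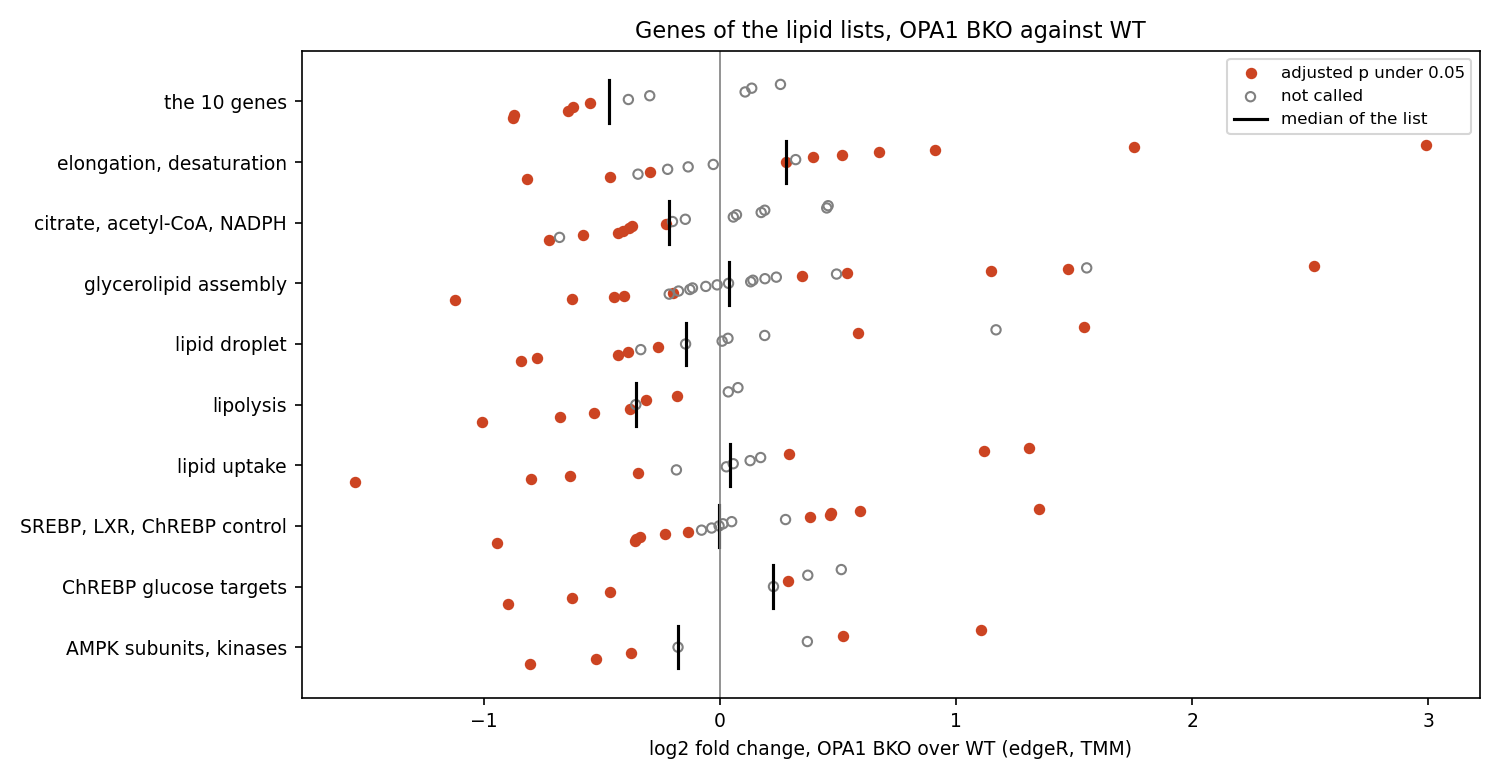
Log2 fold change of OPA1 BKO over WT (edgeR, TMM) for each tested gene of the 10 lists, filled where the adjusted p-value is under 0.05 and open where it is not, with a bar at the median of the list. The 10 lipogenesis and triglyceride genes have a median of −0.47 and no filled point above 0, whereas elongation and glycerolipid assembly hold filled points on both sides; with TPM scaling most points would lie above 0.

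How the TPM of a gene was divided among its transcripts also differed for some of the 10. Shares of the gene's TPM were compared for 20084 transcripts by an exact permutation test of genotype over the 16 mice (two-sided), which called 1.56% of them. Of 22 transcripts of 7 of the 10 genes, 3 were called. The full-length coding transcript of *Me1*, Me1-201, held 84.1% ± 6.8 (SD, n = 8) of the gene's TPM in WT but 72.0% ± 3.2 (SD, n = 8) after *Opa1* deletion (permutation p = 0.000311, adjusted p = 0.0378), and Me1-204, a short noncoding transcript within the gene, rose from 15.9% to 28.0% as its complement. The test took no account of sex. The share of Me1-201 was 74.4% to 84.1% in WT females and 84.2% to 95.5% in WT males. In OPA1 BKO mice it was 67.6% to 74.2% in females and 66.9% to 76.3% in males. Mlxipl-206, annotated as a target of nonsense-mediated decay, fell from 23.5% to 19.5% (permutation p = 0.000777, adjusted p = 0.0497). Left-out mice decided these calls, with 2 to 4 called without any 1 WT mouse, 1 without OPA1 BKO male 1 and 0 without any other OPA1 BKO mouse.

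*Srebf1* and *Mlxipl* each have several annotated starts. Srebf1-201, a coding transcript with a start of its own, held 28.0% ± 4.5 (SD, n = 8) of the TPM of *Srebf1* in WT mice. Its share was 36.3% ± 4.7 (SD, n = 8) in OPA1 BKO mice, with an exact permutation p = 0.00404 that did not pass adjustment (adjusted p = 0.0877). The transcript at the upstream start of *Mlxipl*, Mlxipl-210, held 8.88% and 11.4% (permutation p = 0.154, adjusted p = 0.447), from 26 to 227 estimated counts a mouse. For *Fasn*, *Acacb*, *Dgat1* and *Mlxipl* most of the summed TPM was credited to noncoding transcripts with retained introns or without a full open reading frame. Their share was 69.3% in WT and 56.7% in OPA1 BKO mice for *Fasn*, 69.3% and 57.3% for *Acacb*, 68.3% and 62.5% for *Dgat1*, and 50.9% and 51.4% for *Mlxipl*. Of estimated counts, noncoding transcripts held 17.0% and 10.4% for *Fasn*, 62.7% and 48.4% for *Acacb*, 45.7% and 38.7% for *Dgat1*, and 57.1% and 56.3% for *Mlxipl*. On the TPM scale the log2 ratio of the genotype means of *Fasn* was −0.10 over all its transcripts and 0.46 over the coding ones alone. For *Acacb* it was 0.39 and 0.87, for *Dgat1* 0.22 and 0.52, and for *Mlxipl* 0.74 and 0.72.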

How the data were processed

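RNA from BAT of 16 mice had been sequenced with a stranded kit for polyadenylated RNA, and the authors had quantified it with Kallisto 0.45.0 on mm10, per the labels. For each mouse the authors deposited an estimated count per transcript, which is not normalised between mice, and a TPM, which divides it by effective length and scales each mouse to 1 total. Alignment with gene counting, also in the study's methods, was not analysed here. Of 135308 transcripts, 133284 were joined by identifier without version to GENCODE M21 (GRCm38), and the rest, 0.483% to 0.73% of counts, were not used. Gene sums of the estimated counts were rounded, filtered (filterByExpr, minimum count 10, minimum total 15), normalised by TMM and tested with edgeR 4.0.16 (R 4.3.3). Levels are CPM, and log2 CPM used a prior count of 2. Limma 3.58.1 was used for TPM and for spread, and DESeq2 1.42.0 as an alternative. The tests were checked on simulated data. Total counts were between 13607283 and 23114534, and intervals from depth cover counting error only.

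The 10 genes, the lists and the tests were chosen with earlier results of these data known. Genes named were the 10, *Opa1*, the 2 largest called changes in each direction of each pathway list, and the 5 genes most like the 10. One gene that this rule names is not reported here. Labels name no litters or batches, and p-values measure the spread between these mice. Alternatives were other normalisations, filters and tools, TPM with 3 pseudocounts (0.5, 1 and 0.1), and leaving out each mouse. The fit without the 2 libraries highest in skeletal muscle markers, the ratios to *Fasn* and the shares by coding class were chosen after seeing the data.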

Additional observations from a re-analysis of the deposited data

Results flagged for a closer look

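Of 40 groups of 4 mice (10 genes in 4 groups), 1 held a mouse far from the others by Dixon's criterion, and chance alone flags about 1 in 20 groups. *Acacb* in OPA1 BKO female 2 was at 1102 CPM, beside 888 to 921 CPM in the other 3 OPA1 BKO females. The same library had 11957 CPM of skeletal muscle markers, the second highest sum, and the part of muscle RNA in this value was not tested. Without the 2 libraries with most muscle markers the log2 fold change of *Acacb* was −0.51 (adjusted p = 0.00901, edgeR), beside −0.55 with all mice.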

How the results depend on the processing

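DESeq2, RLE factors, no mitochondrial genome genes, a filter at a mean of 1 TPM, no sex term and length-scaled counts all called 5 of the 10 genes lower and 0 higher. *Tbp* scaling, no filter and leaving out the 2 libraries with most skeletal muscle markers called 4, each losing *Fasn* (−0.57, −0.60 and −0.52). With library size alone 11242 genes were called in place of 6412, 10869 of them higher and 373 lower. Of the 10, 1 was lower and 3 higher, 2 were called in males, and *Acaca* (0.17), *Acacb* (0.010) and *Mlxipl* (0.26) turned positive. On log2(TPM + 0.5), (TPM + 1) and (TPM + 0.1), 13598, 13584 and 13580 genes were called, of which 13480, 13467 and 13460 were higher. Of the 10, 0 were lower and 6 higher, with 105 list genes in place of 66. There *Acaca* (0.62), *Acacb* (0.38), *Thrsp* (0.069), *Mlxipl* (0.70), *Dgat1* (0.24) and *Dgat2* (0.077) turned positive under each pseudocount. The median of all genes was 0.57 with library size alone and 0.74 to 0.92 on TPM. *Srebf1* was −0.046 with length-scaled counts, and *Me1* was between −0.0069 (without WT female 4) and 0.28 (without WT male 2) over the leave-outs, and −0.0035 without WT male 3, where the cause was not tested. DESeq2 called 7 of the 10 lower in males in place of 4, beside 2779 of all genes in place of 2648. In females it called 3 of the 10 lower in place of 2, beside 1679 of all genes in place of 1412. For the interaction it called 1 in place of 0, beside 349 of all genes in place of 18. The correlation with *Fasn* was called for 1 relation on log2(TPM + 0.5) in place of 3. Leaving out 1 mouse gave 5876 to 6482 genes, 4 to 5 of the 10 lower, 60 to 67 list genes, 2 to 3 of the 10 in females, 3 to 6 in males and 0 to 4 member transcripts.

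No paired analysis was possible because the labels number the mice in one run over all groups, and the numbers used within groups are names that tie no mouse to another. Depth does not limit the 10 genes, since each had at least 3109 estimated counts in every mouse. It does limit single transcripts, such as Mlxipl-210 with as few as 26 estimated counts in a mouse.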
